A study of Mus musculus with 20 samples.

Results

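The genes described are Six4, Eya1, Eya4, Tbx15, Sox6, Maf, Nfix and Vgll2, 8 of the 56941 gene rows in the count table, chosen by symbol as regulators of fast and slow muscle fibre identity. Each of the 8 symbols named a single row, and all 8 passed the filter on low counts. RNA was measured in whole soleus muscles of C57BL/6J mice. In the space group, 10 mice had their hind limbs unloaded for 14 days and also received ionizing radiation and, through the diet, a stress hormone. In the control group, 10 mice received sham irradiation. Unloading, radiation and hormone came together in every space mouse, so what each did alone cannot be told apart. The sources used here give no age, sex, radiation dose or hormone name. Each library is labelled as a separate sample from a group of 10 mice, with no label tying it to a named animal.

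Fibre identity in skeletal muscle is set by transcription factors that raise one contractile programme and repress the other. Homeobox proteins such as Six4 bind MEF3 elements in muscle promoters, and Eya proteins join them as coactivators. In mice, the large Maf factors drive Myh4, the heavy chain of the fastest type 2B fibres, and Tbx15 is enriched in glycolytic fibres. Sox6 represses slow fibre genes in fast fibres. Nfix switches mouse myoblasts to the fetal programme, and Vgll2 is a muscle cofactor of the TEAD factors that in mice favours slow fibres. The soleus is a slow, oxidative muscle, with Myh7 as its slow heavy chain.

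Libraries held 17336017 to 43424464 counts. Of 16778 genes tested with edgeR, 57.6% were called (Benjamini-Hochberg adjusted p under 0.05), 28.7% higher and 28.9% lower in space muscles. With library size alone as the scaling, 61.3% of the called genes were higher, against 49.8% here. Myh4 stood at 8006 to 15686 CPM (counts scaled to library size and TMM factor) in space libraries and 19.5 to 1490 CPM in controls, and Myh7 at 2353 to 7271 CPM in space libraries and 8134 to 11971 CPM in controls. Of 5 general fibre markers, the titin gene Ttn averaged 196220 ± 20602 CPM in space muscles and 191420 ± 11952 CPM in control muscles and, like the desmin gene Des, was not called. The creatine kinase gene Ckm rose 2.21-fold, the actin gene Acta1 fell 2.14-fold and the myoglobin gene Mb fell 1.53-fold. The summed level of the 5, most of it Ttn, was 175720 to 253250 CPM in space libraries and 193300 to 240160 CPM in controls. Nerve markers stood apart in space replicates 1 to 4, where the summed level of 10 Schwann and nerve genes was 532 to 1538 CPM, against 98.2 to 190.0 CPM in space replicates 5 to 10 and 98.4 to 199 CPM in controls. The summed level of 4 adipocyte markers was 70.5 to 169 CPM in space replicates 1 to 4. It was 9.72 to 68.1 CPM in space replicates 5 to 10 and 11.0 to 87.2 CPM in controls. The members' results are therefore also given without those 4 libraries.

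Of the 8 regulators, 4 rose, 1 fell and 3 did not pass the test in space muscles. Maf rose 4.15-fold, Eya4 3.65-fold, Tbx15 1.62-fold and Sox6 1.46-fold, and Vgll2 fell 5.86-fold. Six4, Eya1 and Nfix were not called, with log2 fold changes of 0.09, -0.07 and -0.03, of which those of Eya1 and Nfix changed sign under other scalings. The share called, 5 of 8, lies near the 57.6% of all genes. A call with a change of at least 2-fold was made for 2 members upward and 1 downward, against 3.82% of all tested genes upward, 3.37% downward and 7.19% in either direction. The median log2 fold change of the 8 was 0.32, against 0.02 over all tested genes. In the 5 called members the 10 space and the 10 control libraries did not overlap, which held for 17.4% of all tested genes. The members were chosen with earlier results of these data known, so these comparisons with all genes cannot show an excess. In bulk muscle, fewer cells or fibres of a type and less RNA per cell cannot be told apart. Without space replicates 1 to 4, again 4 members were higher and 1 lower, where 51.3% of genes were called.

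**Figure D1:**
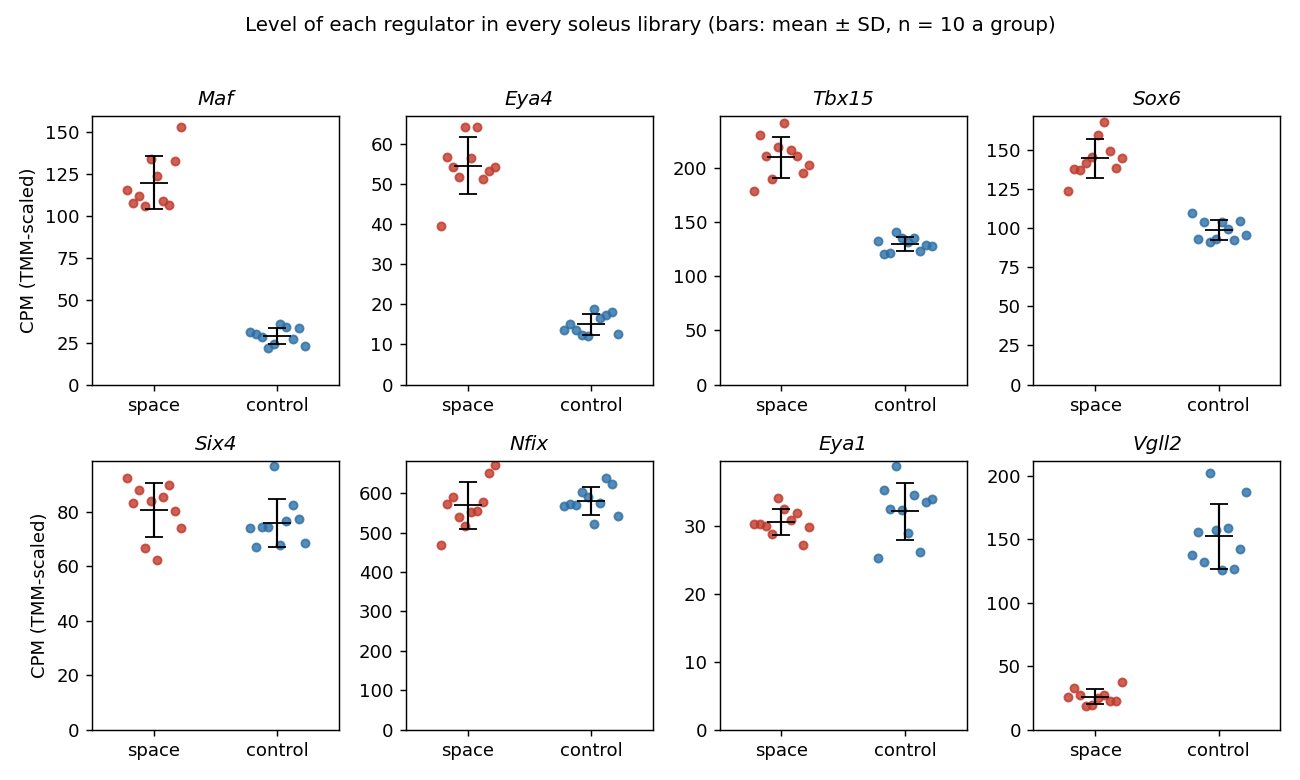
CPM of each regulator in every library, space on the left and control on the right of each panel, each axis starting at 0, with black bars for the mean and SD of 10 libraries. Maf, Eya4, Tbx15 and Sox6 lie wholly above the controls in space muscles, Vgll2 lies wholly below, and Six4, Nfix and Eya1 overlap.

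Maf encodes c-Maf, one of the large Maf factors. Its level was 106 to 153 CPM with a median of 114 CPM in space libraries, against 21.8 to 35.8 CPM with a median of 29.0 CPM in controls. Every space library lay far above every control. Maf averaged 120.1 ± 15.7 CPM in space muscles and 29.0 ± 4.90 CPM in control muscles (SD, n = 10 each), a 4.15-fold rise (log2 change 2.05 ± 0.097 SE, adjusted p by edgeR = 8.29e-14). Without space replicates 1 to 4 the rise was 4.39-fold. Exons of Maf overlap the antisense model Gm15655, which held 37 counts over all libraries against 46337 for Maf.

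Eya4 encodes a coactivator of the sine oculis homeobox proteins such as Six4. It stood at 39.4 to 64.3 CPM with a median of 54.2 CPM in space libraries, against 12.0 to 18.7 CPM with a median of 14.3 CPM in controls. Space replicate 1 was the lowest of its group at 39.4 CPM, and the next lowest space library held 51.3 CPM. The mean was 54.6 ± 7.03 CPM in space muscles and 15.0 ± 2.52 CPM in control muscles (SD, n = 10 each), a 3.65-fold rise (log2 change 1.87 ± 0.098 SE, adjusted p by edgeR = 2.95e-13). Its paralogue Eya1, also a coactivator of these homeobox proteins, stood at 27.2 to 34.1 CPM with a median of 30.3 CPM in space libraries and 25.3 to 38.9 CPM with a median of 33.1 CPM in controls, so the control range enclosed the space range. Eya1 averaged 30.6 ± 1.93 CPM in space muscles and 32.2 ± 4.21 CPM in control muscles, with a log2 fold change of -0.07 ± 0.068 SE that was not called (adjusted p by edgeR = 0.337) and was 0.01 with library size alone as the scaling.

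Eya4 and Eya1 can be set against each other within a library, where scaling plays no part. There were 1.30 to 2.08 Eya4 counts per Eya1 count in space libraries and 0.318 to 0.660 in controls. The mean ratio was 1.78 ± 0.212 in space muscles and 0.476 ± 0.117 in control muscles (SD, n = 10 each). The log2 ratio was higher by 1.94 (2-sided permutation test, p = 2e-05, the smallest that 100000 resamples can give). The ratio gives the Eya4 rise free of scaling. Both genes had already been read above, so its p is no separate support. Per kb of exon model, Eya4 made up 38.2 ± 3.30% of the 4 Eya genes together in space muscles and 13.8 ± 2.40% in control muscles. The summed Eya level was 15.1 ± 0.836 CPM per kb in space muscles and 11.5 ± 0.655 CPM per kb in control muscles.

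Six4, a MEF3-binding partner of the Eya proteins, stood at 62.1 to 92.5 CPM with a median of 83.5 CPM in space libraries and 66.9 to 96.7 CPM with a median of 74.3 CPM in controls. The ranges overlapped almost entirely. The means were 80.5 ± 9.96 CPM in space muscles and 75.9 ± 8.76 CPM in control muscles, and the log2 fold change of 0.09 ± 0.077 SE was not called (adjusted p by edgeR = 0.314).

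Tbx15, a T-box factor, stood at 178.8 to 241.8 CPM with a median of 211 CPM in space libraries, against 120.9 to 140.9 CPM with a median of 130.2 CPM in controls. All 10 space libraries lay above every control. It averaged 209.8 ± 18.9 CPM in space muscles and 129.8 ± 6.69 CPM in control muscles (SD, n = 10 each), a 1.62-fold rise (log2 change 0.69 ± 0.048 SE, adjusted p by edgeR = 1.5e-11).

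Sox6, a SoxD factor that represses slow fibre genes, stood at 123.9 to 168 CPM with a median of 143.7 CPM in space libraries, against 91.2 to 109.7 CPM with a median of 97.7 CPM in controls. Here too no space library reached down to the controls, although the gap was small. It averaged 144.8 ± 12.4 CPM in space muscles and 98.8 ± 6.50 CPM in control muscles (SD, n = 10 each), a 1.46-fold rise (log2 change 0.55 ± 0.049 SE, adjusted p by edgeR = 9.28e-10). The antisense Sox6os lies opposite Sox6 with no exon in common and held 436 counts against 76082 for Sox6.

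Nfix, a nuclear factor I gene, was the most abundant of the 8 by counts. It stood at 468 to 671 CPM with a median of 564 CPM in space libraries and 522 to 640 CPM with a median of 574 CPM in controls. The space range enclosed the control range. The means were 569.6 ± 59.4 CPM in space muscles and 580.7 ± 35.1 CPM in control muscles, with a log2 fold change of -0.03 ± 0.055 SE (edgeR adjusted p = 0.683) that was 0.05 with library size alone and 0.02 without space replicates 1 to 4. Its exons overlap Lyl1 on the opposite strand, which held 1626 counts against 357595 for Nfix.

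Vgll2, the TEAD cofactor, was the single member that fell. It stood at 18.6 to 37.3 CPM with a median of 25.7 CPM in space libraries, against 126 to 202 CPM with a median of 149 CPM in controls. Every space library lay below every control. Vgll2 averaged 26.0 ± 5.73 CPM in space muscles and 152.6 ± 25.6 CPM in control muscles (SD, n = 10 each), a 5.86-fold decrease (log2 change -2.55 ± 0.122 SE, adjusted p by edgeR = 6.26e-13). Without space replicates 1 to 4 the log2 fold change was again -2.55.

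In the GRCm38 annotation Six4 lies on chromosome 12, Eya1 on 1, Eya4 on 10, Tbx15 on 3, Sox6 on 7, Maf and Nfix on 8 and Vgll2 on 10. Divided by exon length, the order of the regulators differed between the groups. In space muscles the order in CPM per kb was Nfix at 77.5, Tbx15 at 56.0, Vgll2 at 15.8, Maf at 14.6, Sox6 at 9.76, Six4 at 7.42, Eya4 at 5.79 and Eya1 at 3.92. Of these neighbours, Tbx15 and Vgll2 did not overlap in range, nor did Maf and Sox6, while every other pair of neighbours overlapped. In control muscles it was Vgll2 at 92.5, Nfix at 79.0, Tbx15 at 34.6, Six4 at 6.99, Sox6 at 6.66, Eya1 at 4.12, Maf at 3.52 and Eya4 at 1.59. There Vgll2 overlapped Nfix, Six4 overlapped Sox6 and Eya1 overlapped Maf. Maf and Eya4 held the lowest places in control muscles, and Vgll2 the highest.

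**Figure D2:**
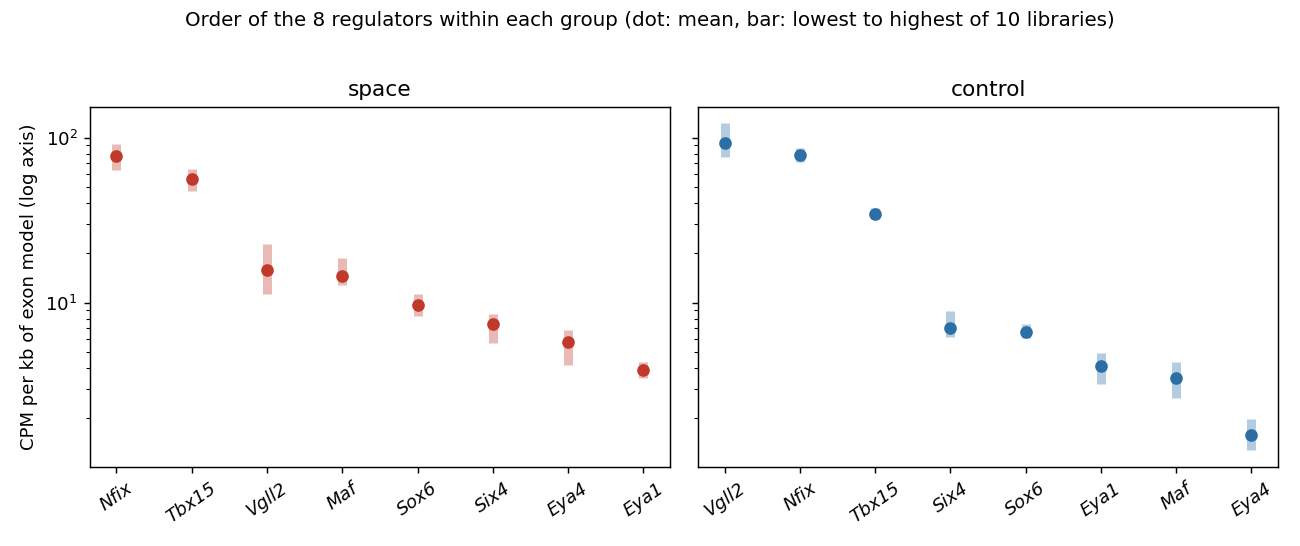
Mean level of the 8 regulators in CPM per kb of exon model on a log axis, space on the left and control on the right, with bars from the lowest to the highest of 10 libraries. Vgll2 leads the control muscles at 92.5 and stands at 15.8 in space muscles, and Eya4 is last in control muscles at 1.59.

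The promoters of regulators and myosins were read for short elements of these factor families. RefSeq sequences on GRCm38.p6, from 250 bases before to 50 bases after a start, were at hand for 5 of the 8 members (15 promoters) and for Myh4 and Myh7. The elements, searched on both strands, were TCAGGTT (MEF3, the element of these homeobox proteins), AACAATG (Sox), GGAATG (TEAD), TGCTGAC (core of the large Maf element) and AGGTGTGA (core of the T-box element). They occur in 4.07%, 3.78%, 14.66%, 4.67% and 1.28% of all 32851 promoters in that table. The promoters below were picked as follows: Sox6 with a MEF3 and a Sox element, Vgll2 as the regulator that fell, and the fast and slow myosins that the regulators are known to act on. Capitals mark the elements.
Sox6 start at chr7:115824661-115824960 (minus strand): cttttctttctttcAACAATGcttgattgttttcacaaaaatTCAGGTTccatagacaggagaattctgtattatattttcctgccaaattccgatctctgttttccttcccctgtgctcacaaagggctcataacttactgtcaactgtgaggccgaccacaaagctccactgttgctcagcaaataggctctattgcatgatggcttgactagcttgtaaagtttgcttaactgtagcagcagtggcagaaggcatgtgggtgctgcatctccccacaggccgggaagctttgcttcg
Vgll2 at chr10:52022252-52022551 (plus strand): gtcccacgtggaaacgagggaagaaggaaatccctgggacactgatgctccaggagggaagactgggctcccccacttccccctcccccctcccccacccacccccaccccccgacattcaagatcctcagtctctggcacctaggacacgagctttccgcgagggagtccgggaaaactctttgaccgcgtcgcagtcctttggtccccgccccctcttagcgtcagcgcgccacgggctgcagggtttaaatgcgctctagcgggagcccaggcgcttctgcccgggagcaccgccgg
Myh4 at chr11:67237562-67237861 (plus strand): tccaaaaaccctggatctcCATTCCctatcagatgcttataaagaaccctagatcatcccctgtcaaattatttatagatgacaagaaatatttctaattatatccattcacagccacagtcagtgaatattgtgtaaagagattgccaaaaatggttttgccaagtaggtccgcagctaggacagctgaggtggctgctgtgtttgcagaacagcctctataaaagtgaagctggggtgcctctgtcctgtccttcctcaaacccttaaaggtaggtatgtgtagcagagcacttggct
Myh7 at chr14:54994577-54994876 (minus strand): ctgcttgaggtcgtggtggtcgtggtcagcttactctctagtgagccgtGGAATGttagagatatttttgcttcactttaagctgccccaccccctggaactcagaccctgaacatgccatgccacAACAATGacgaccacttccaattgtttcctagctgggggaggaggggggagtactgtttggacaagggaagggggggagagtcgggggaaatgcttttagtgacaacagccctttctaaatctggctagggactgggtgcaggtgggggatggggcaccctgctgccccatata

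This Sox6 promoter, the fifth of 6 starts listed, holds TCAGGTT 208 bases and AACAATG 236 bases before the start. Sox6 promoters 1 and 4 each hold a TEAD element, 107 bases before the start and, on the minus strand, 132 bases before it. The Myh7 promoter shown, 1 of 2 that overlap, holds AACAATG 124 bases and GGAATG 201 bases before the start, and the other holds only AACAATG, 201 bases before its own start. The Myh4 promoter holds GGAATG on the minus strand, as CATTCC, 231 bases before it. One of 2 Six4 promoters holds a MEF3 element on the minus strand 97 bases before the start, and no element overlapped another. The Vgll2 promoter and the Eya4 and Nfix promoters hold none of the 5 elements in this window. Vgll2 has 65.3% G and C over this window and Myh4 43.0%. These matches describe letters and not bound sites.

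The relatives and partners of the 8 regulators were read from the same fit, 41 genes of which 37 passed the filter. Of these, 15 rose, 7 fell and 15 were not called, and the share called lies near the 57.6% of all tested genes. Their median log2 fold change was 0.07. Without space replicates 1 to 4, 10 rose and 8 fell. Among the homeobox relatives of Six4 with the Eya and Dach genes 3 of 7 tested rose and 1 fell, and without space replicates 1 to 4 the counts were 1 and 1. Sobp, a nuclear protein named for binding the sine oculis protein of flies, averaged 35.7 ± 4.53 CPM in space muscles and 19.0 ± 2.62 CPM in control muscles, 1.88-fold higher (edgeR adjusted p = 8.75e-10). Dach1, a corepressor in the same network, rose 1.15-fold and the homeobox gene Six5 1.24-fold. Eya3 fell 1.10-fold.

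Among the Maf genes, 1 of 4 tested rose and 1 fell. Mafa, another large Maf factor, averaged 45.6 ± 6.14 CPM in space muscles and 7.16 ± 1.71 CPM in control muscles, a 6.42-fold rise (log2 change 2.68 ± 0.119 SE, adjusted p by edgeR = 4.56e-14) with no overlap between groups. The small Maf gene Mafk, which lacks an activation domain, fell 1.82-fold (edgeR adjusted p = 1.69e-06).

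Of 7 tested T-box genes, 2 rose and 1 fell, all by less than Tbx15. Tbx1 rose 1.21-fold, Tbx2 rose 1.26-fold and Mga, a T-box and Max-binding factor, fell 1.15-fold. Of 8 other Sox genes, 4 rose and 3 fell, and without space replicates 1 to 4, 2 rose and 3 fell. The SoxD relatives of Sox6 were among those that rose, Sox5 by 1.37-fold and Sox13 by 1.21-fold. Sox9, a factor of cartilage and tendon cells, averaged 6.21 ± 1.70 CPM in space muscles and 30.3 ± 4.87 CPM in control muscles, a 4.86-fold decrease (edgeR adjusted p = 2.52e-11), and the endothelial factor Sox17 fell 1.63-fold. Beside these falls, all 4 tenocyte markers were lower, summing to 73.7 to 108.1 CPM in space libraries and 130.7 to 258.6 CPM in controls. Of 8 endothelial markers 4 were lower and none was higher, summing to 479 to 576 CPM in space libraries and 553 to 679 CPM in controls. The part of these cell types in the Sox9 and Sox17 falls was not tested. For scale beside the counts in this paragraph, 28.7% of all tested genes rose and 28.9% fell.

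In the nuclear factor I family, Nfic rose 1.39-fold and Nfia 1.29-fold, and neither Nfib (log2 change -0.03 ± 0.045 SE, adjusted p by edgeR = 0.618) nor Nfix passed the test. Of 8 tested Vgll and TEAD genes and their coactivators, 3 rose and 1 fell, and without space replicates 1 to 4, 2 rose and 2 fell. Tead4, a DNA-binding partner of Vgll proteins, averaged 28.2 ± 8.47 CPM in space muscles and 13.2 ± 3.16 CPM in control muscles, 2.15-fold higher (edgeR adjusted p = 7.55e-06). Vgll4 rose 1.28-fold, Vgll3 rose 1.30-fold and the coactivator Yap1 fell 1.14-fold. Tead1, the most abundant TEAD gene per kb, stood at 50.4 ± 4.91 CPM per kb in space muscles and 54.4 ± 6.03 CPM per kb in control muscles.

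**Figure D3:**
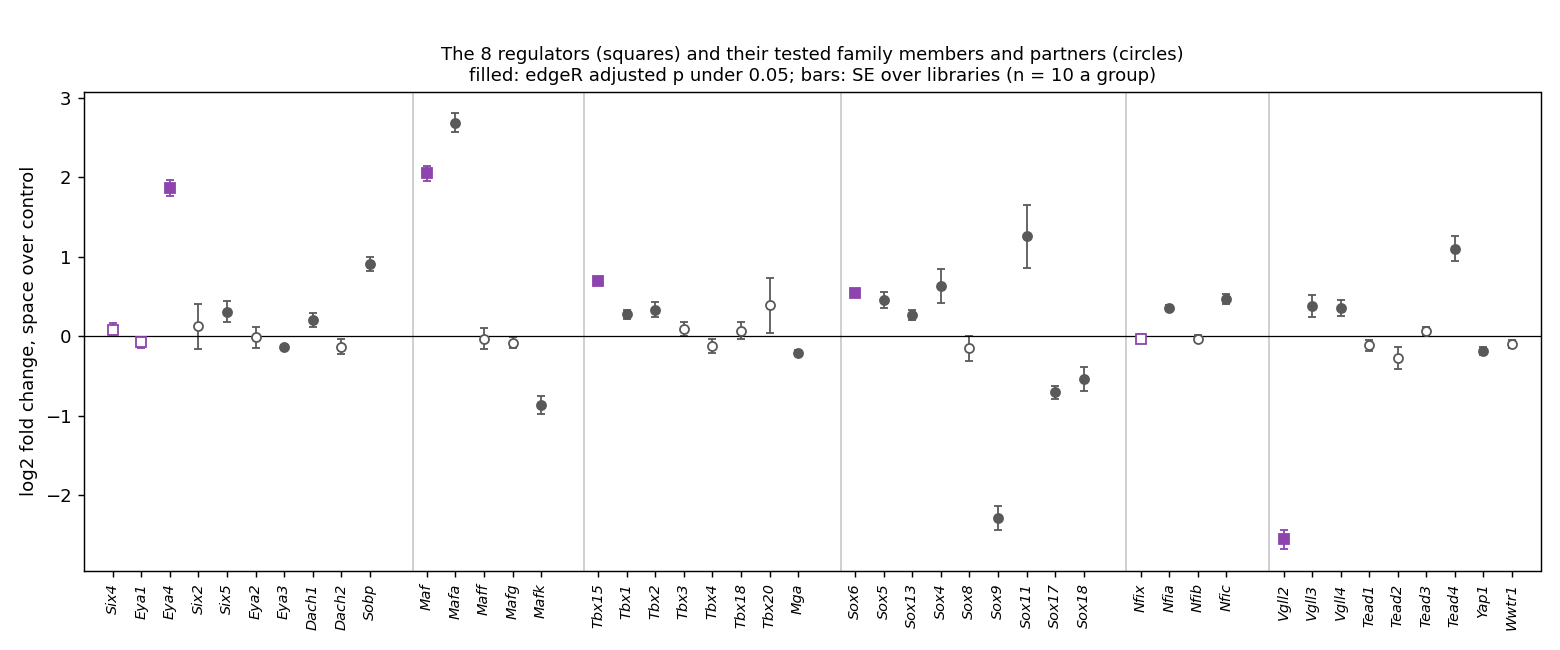
log2 fold change of space over control for the 8 regulators (squares) and 37 tested relatives and partners (circles) by family, filled where the edgeR adjusted p was under 0.05, with bars for the SE over libraries. Mafa at 2.68, Maf at 2.05 and Eya4 at 1.87 stand highest, and Vgll2 at -2.55 and Sox9 at -2.28 lowest.

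The listed fast and slow fibre genes moved by fibre type, and whether the regulators acted on them was not tested. Over all tested genes, 28.7% rose and 28.9% fell. The fibre gene lists too were chosen with earlier results of these data known. Of 16 fast fibre genes 14 rose and none fell, with a median log2 fold change of 1.02. Of 16 slow fibre genes all 16 fell, with a median of -1.57, and without space replicates 1 to 4, 15 fell. Among fast genes with the smallest p, the calcium pump Atp2a1 rose 2.44-fold, the Z-disc gene Myoz1 3.28-fold, the myosin light chain kinase Mylk2 2.81-fold and the heavy chain Myh1 4.19-fold. Among slow genes, the calcium pump inhibitor Pln fell 4.41-fold, the cardiac calsequestrin Casq2 3.70-fold, the slow light chain Myl3 3.40-fold and the slow myosin-binding protein Mybpc1 1.85-fold. Of 12 other regulators of fibre type and muscle differentiation, 4 rose and 5 fell. Esrrg, an oxidative nuclear receptor, fell 3.83-fold, and Prox1, a homeobox factor of slow fibres, fell 2.60-fold. Mef2c fell 1.31-fold, and Hdac4, a repressor of Mef2, rose 2.27-fold.

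Whether the regulators followed the myosins from library to library was asked within each group, since a relation over all 20 libraries would repeat the group difference. The 8 regulators against Myh4 and Myh7 in each group gave 32 relations. Of these, 8 had a permutation p under 0.05 before adjustment. In an edgeR fit of slopes over all genes, 0 of the 32 had an adjusted p under 0.05 and 11 had an unadjusted p under 0.05, and voom called 2. Across all genes, 2.62% had a called slope on Myh4 within space muscles and 0.0179% within control muscles, while 0.227% had one on Myh7 within space muscles and 0.00596% within control muscles. The difference between the slopes in space and control muscles was called for 0 of 16 member relations by edgeR, with 5 at an unadjusted p under 0.05. Across all genes that difference was called for 2.9% on Myh4 and 0.00596% on Myh7. Shares over all genes were not counted for permutation p, unadjusted p or voom. The member counts by those measures therefore have no background and cannot show that members differ from other genes. The spread of Myh4 itself was unlike in the groups, with an SD of 0.28 log2 units in space muscles and 1.86 in control muscles. In simulated counts, the edgeR slope fit recovered 2.5% of slopes of 0.5 on Myh4 in space libraries and 98.5% in control libraries. The lack of edgeR calls on Myh4 in space muscles therefore cannot tell a slope of that size from none. In control muscles the member slopes on Myh4 were much smaller than 0.5, the largest in size being 0.09 for Maf. Recovery of slopes that small was not simulated, so the lack of control calls cannot tell them from none. Recovery of slopes on Myh7 was not simulated.

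Sox6 with Myh4 in space muscles had the smallest permutation p of the 32 relations. Pearson's r was 0.812 (permutation p = 0.0006) and Spearman's rho 0.903 (permutation p = 0.0008) over the 10 space libraries. Without space replicates 1 and 3, the farthest from the median of Myh4, r was 0.753 (exact permutation p = 0.0275). The slope was 0.36 log2 units per log2 unit of Myh4 (edgeR adjusted p = 0.0564). Over space replicates 5 to 10 r was 0.646 (exact permutation p = 0.122), and with library size alone as the scaling it was 0.445 (permutation p = 0.165). The TMM factors were 1.05 to 1.16 in space replicates 1 to 4 and 0.945 to 1.01 in the other space libraries, and their part in the relation was not tested. Within control muscles r was 0.562 (permutation p = 0.0633).

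Maf and Eya4, whose factors and partners are known to act on fast genes, were set against Myh4 in control muscles. For Maf, r was 0.644 (permutation p = 0.0442) and rho 0.746 (permutation p = 0.0171), with a slope of 0.09 log2 units per log2 unit of Myh4 (edgeR adjusted p = 0.782). Without control replicates 5 and 8, r was 0.734 (exact permutation p = 0.0579). For Eya4, r was 0.566 (permutation p = 0.0651) and rho 0.636 (permutation p = 0.0551), and r was 0.733 without the same 2 libraries (exact permutation p = 0.0383). In space muscles the r of Maf with Myh4 was 0.208 (permutation p = 0.663). That of Eya4 was 0.799 (permutation p = 0.0587) and rested on space replicates 1 and 3, since without them it was 0.132 (exact permutation p = 0.727). Space replicate 1 was the lowest space library in both genes.

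Six4, Nfix and Vgll2 were set against the slow myosin, where each had a permutation p under 0.05 in space muscles, control muscles or both. Maf and Sox6 with Myh7 had a permutation p over 0.05 in both groups. Vgll2 with Myh4 gave r = 0.015 in space muscles (permutation p = 0.99) and -0.148 in control muscles (permutation p = 0.635). In control muscles the r of Six4 with Myh7 was 0.775 (permutation p = 0.00356) and rho 0.794 (permutation p = 0.00878). Without control replicates 5 and 6 r was 0.641 (exact permutation p = 0.0853), and over the space libraries it was 0.015 (permutation p = 0.961). Against Myh4 in space muscles, Six4 had r = -0.515 (permutation p = 0.0309) and rho -0.527 (permutation p = 0.124). That r was -0.313 without space replicates 1 and 3 (exact permutation p = 0.443). Nfix with Myh7 gave r = 0.634 (permutation p = 0.0473) in space muscles and 0.705 (permutation p = 0.0237) in control muscles. Without the 2 farthest libraries these values were 0.473 (exact permutation p = 0.253) in space and 0.594 (exact permutation p = 0.12) in control muscles. With library size alone as the scaling they were 0.814 (permutation p = 0.00694) in space and 0.463 (permutation p = 0.179) in control muscles. Vgll2 with Myh7 in space muscles gave r = 0.643 (permutation p = 0.0467) and, without space replicates 5 and 9, 0.792 (exact permutation p = 0.0152), while rho was 0.503 (permutation p = 0.142). In control muscles its r with Myh7 was 0.218 (permutation p = 0.546). Tbx15 had r = 0.646 (permutation p = 0.0458) and rho 0.418 (permutation p = 0.233) with Myh4 in space muscles, and r was 0.348 without space replicates 1 and 3 (exact permutation p = 0.388). With library size alone as the scaling, the r with Myh4 in space muscles was 0.238 for Tbx15 (permutation p = 0.523) and -0.809 for Six4 (permutation p = 0.00218). Over space replicates 5 to 10, the r of Nfix with Myh7 was 0.932 (exact permutation p = 0.0278) and that of Vgll2 0.506 (exact permutation p = 0.344). Over the same 6 libraries the r with Myh4 was 0.628 for Tbx15 (exact permutation p = 0.15), -0.540 for Six4 (exact permutation p = 0.222) and 0.010 for Eya4 (exact permutation p = 0.983). None of the 4 relations of Eya1 had a permutation p under 0.05 over the 10 libraries.

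**Figure D4:**
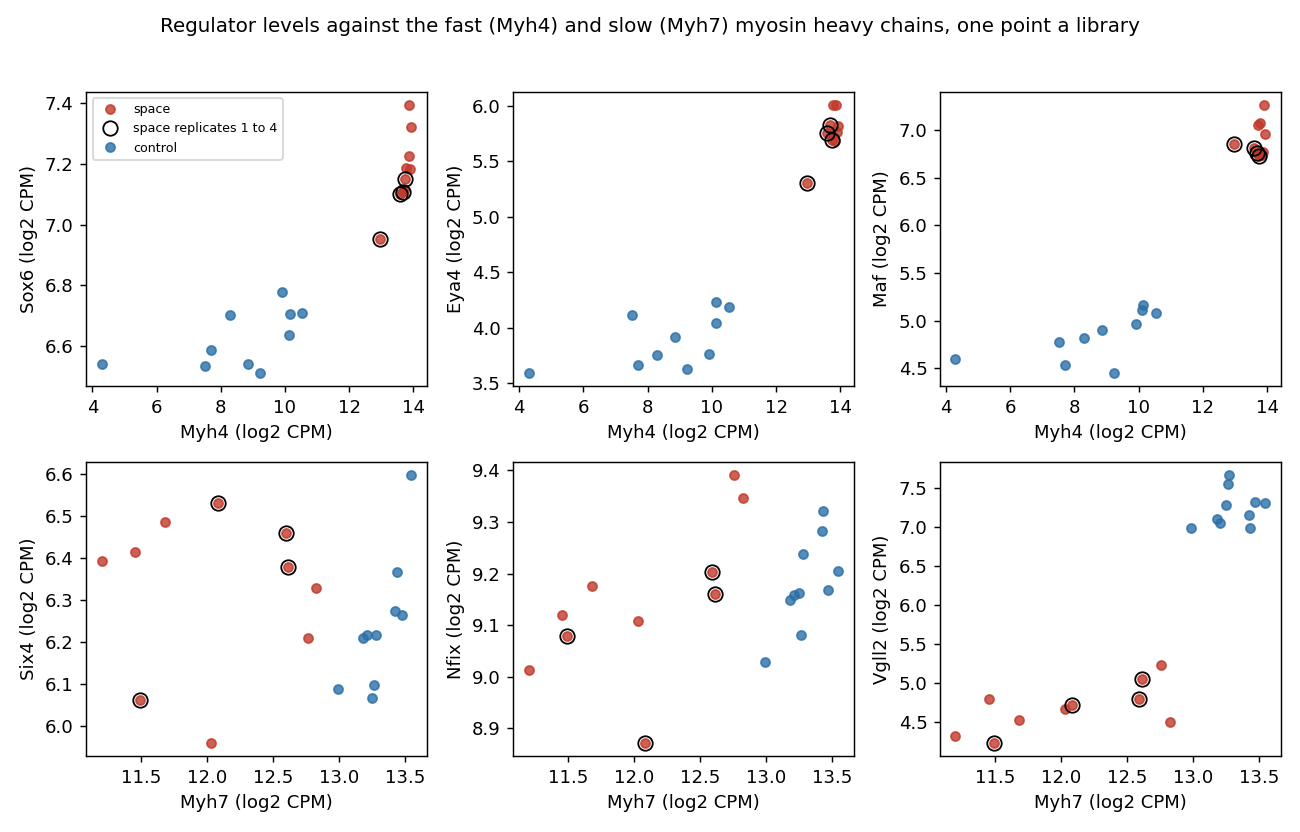
Sox6, Eya4 and Maf against Myh4 (top) and Six4, Nfix and Vgll2 against Myh7 (bottom), all in log2 CPM, one point a library, space in red with replicates 1 to 4 ringed and control in blue. The groups separate along both axes for Sox6, Eya4, Maf and Vgll2, and within the space group Myh4 spans less than 1 log2 unit.

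Members also varied with one another. Over 28 pairs, Pearson's r of deviations from the group mean across the 20 libraries ran from -0.334 for Six4 with Sox6 to 0.559 for Eya4 with Maf. Eya4 with Sox6 gave 0.523 and Tbx15 with Sox6 0.426. These values share libraries and scaling factors and are given as a description. By the same measure over 11831 genes, the 3 highest r are listed for each member, so picking alone raises them, and none was tested. The genes most like Sox6 were Tpbgl (0.876), the tropomyosin gene Tpm1 (0.855) and the fast calsequestrin Casq1 (0.813). Those most like Eya4 were the estrogen receptor gene Esr1 (0.819), the fast Z-disc gene Myoz3 (0.793) and Ldha (0.781), a lactate dehydrogenase subunit. Those most like Maf were the water channel Aqp4 (0.746) of fast fibres, Zfp710 (0.746) and Cd24a (0.714). Vgll2 was most like the actinin Actn2 (0.767), Osbpl3 (0.751) and Ppara (0.747), a nuclear receptor of fatty acid oxidation. The genes nearest to Tbx15 were Rev1 (0.823), Ublcp1 (0.799) and Ccdc186 (0.784), those nearest to Nfix were Kremen1 (0.915), Clip4 (0.892) and Rabl6 (0.883), those nearest to Six4 were Psmb10 (0.740), Pik3c2b (0.734) and Zscan21 (0.717), and those nearest to Eya1 were Smcr8 (0.787), Ostm1 (0.785) and Taf11 (0.754).

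Markers of other cells were set beside the members. Of 58 marker genes of other cells and of the endplate, 19 rose and 14 fell, and without space replicates 1 to 4, 12 rose and 17 fell. The shares called lie near the 57.6% and, without those replicates, the 51.3% of all tested genes. All 10 Schwann and nerve markers were called higher over all libraries, and without space replicates 1 to 4, 4 were higher and 1 lower. No marker had a library at 0 counts. The summed level of 8 macrophage markers was 44.4 to 85.0 CPM in space libraries and 37.3 to 70.5 CPM in controls. That of 6 satellite cell markers was 99.6 to 122.1 CPM in space libraries and 100.9 to 123.2 CPM in controls. Most of the satellite cell sum was Notch3, which was not called. Pax7, Myf5 and Cdh15 were called higher and no satellite cell marker was lower. Without space replicates 1 to 4, again 3 satellite cell markers were higher and none was lower. Fibroblast markers summed to 469 to 723 CPM in space libraries and 591 to 1326 CPM in controls but went both ways. Of the 8, Pdgfra and Dcn were higher, Col1a1, Col3a1 and Lum were lower, and 3 were not called. Without space replicates 1 to 4, 2 fibroblast markers were higher and 6 lower. The rises of Maf, Eya4, Tbx15 and Sox6 were each larger without space replicates 1 to 4, at 4.39, 3.85, 1.66 and 1.54-fold.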

How the data were processed

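Total RNA of whole soleus was rRNA-depleted from 90 ng and sequenced in pairs, per the labels' protocols. The authors deposited whole-number counts per gene, and featureCounts 1.5.1, Subread and GRCm39 are named in the submitters' processing notes. The sources used here give no strand setting. The members and gene lists were chosen with earlier results of these data known. All 56941 gene rows (51948 with a symbol, 97.62% of counts; libraries of 17336017 to 43424464 counts) were filtered by filterByExpr and TMM-scaled, leaving 16778 genes, and tested by edgeR 4.0.16 in R 4.3.3 (quasi-likelihood, robust, Benjamini-Hochberg over all genes). CPM are these counts per library size times TMM factor. Each SE was computed from log2 CPM over libraries, not by the model. P-values cover the spread among these libraries, which may be partly technical. Exon lengths and overlaps came from a GRCm38 annotation, not the counting annotation. Slopes used centred log2 CPM of Myh4 or Myh7 within group. Correlations used 100000 permutations, exact below 10 libraries, 2-sided. The genes named were all 8 members, Myh4 and Myh7, up to 4 called genes a list with the smallest p, and the 3 genes most like each member (mean of at least 1 CPM). Others named were picked with values seen. Alternatives were other scalings, filters, libraries left out, a replicate block, DESeq2 1.42.0 and limma 3.58.1. Scripts were tested on simulated data. Some relatives of the members are not reported here.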

Additional observations from a re-analysis of the deposited data

Results flagged for a closer look

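With 10 libraries a group, a library was singled out where its gap to the nearest other library exceeded Dixon's critical share of the group's range at the 95% level, which chance gives in about 1 in 20 groups, and 20 groups (8 members, Myh4 and Myh7) were read. Gaps and ranges were taken in log2 CPM, while the levels given here are in CPM. Eya4 was lowest in space replicate 1, at 39.377 CPM with a gap of 0.541 of the range. Myh4 was lowest in the same library, at 8006.4 CPM with a gap of 0.642. Among controls, Myh4 was lowest in control replicate 5, at 19.527 CPM with a gap of 0.514.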

How the results depend on the processing

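All 8 members kept their side of the threshold under the alternatives run, and the 5 called members and Six4 kept their direction. Eya1, not called, had a log2 fold change of 0.0101 with library size alone, and Nfix, not called, 0.0319 with upper-quartile factors, 0.0491 with library size alone and 0.0243 without space replicates 1 to 4. With each library left out, 4 members were called higher and 1 lower. Leaving out 1 library gave 4631 to 4811 genes higher and 4750 to 4868 lower. A fold threshold of 1.2 gave 2380 higher and 2484 lower. Library size alone gave 5946 higher and 3756 lower, upper-quartile factors 5840 and 4095. Without space replicates 1 to 4, 10 relatives and 12 markers of other cells were called higher. With voom, 2 member slopes on Myh4 were called in space muscles. Relations under 0.05 numbered 5 with library size alone, 4 without the 2 farthest libraries, 4 without space replicates 1 to 4 and 5 by Spearman. The count without space replicates 1 to 4 carries the control relations over unchanged. Among the space relations in it, only Nfix with Myh7 was under 0.05 (exact permutation p = 0.0278). The r of Eya4 with Myh7 in control muscles, -0.13, was 0.80 without control replicates 5 and 6 (exact permutation p = 0.0325), and the cause was not tested. Other relations changed sign with a permutation p over 0.05 on both sides. With Myh4 in space muscles, r with library size alone was -0.313 for Eya1, -0.201 for Maf and -0.207 for Vgll2, without space replicates 1 to 4 it was -0.0866 for Maf and -0.136 for Nfix, and rho for Vgll2 was -0.00606. With Myh7 in space muscles, rho for Six4 was -0.152 and r without space replicates 1 to 4 was -0.390, and for Tbx15 r was 0.00489 with library size alone and 0.165 without the 2 farthest libraries. With Myh4 in control muscles, r without the 2 farthest was 0.460 for Six4, -0.303 for Eya1 and 0.292 for Nfix, and 0.00726 for Nfix with library size alone. With Myh7 in control muscles, r with library size alone was -0.0172 for Eya1, -0.238 for Tbx15 and -0.0383 for Vgll2, and without the 2 farthest 0.380 for Maf and -0.126 for Vgll2. Slopes, none of them called, changed sign too. With library size alone, the slope on Myh4 in space muscles was -0.172 for Eya1, -0.140 for Maf and -0.253 for Vgll2, that on Myh4 in control muscles 0.000328 for Nfix, that on Myh7 in space muscles 0.00517 for Tbx15, and that on Myh7 in control muscles -0.0393 for Eya1, -0.143 for Tbx15 and -0.0919 for Vgll2. In space muscles without replicates 1 to 4, it was -0.247 on Myh4 for Nfix, -0.135 on Myh4 for Maf and -0.110 on Myh7 for Six4. With DESeq2 size factors, it was -0.00203 for Eya1 and -0.00166 for Tbx15 on Myh4 in control muscles and -0.00112 for Six4 on Myh7 in space muscles, and voom gave -0.000968 for Eya1 on Myh4 in control muscles. The cause of these was not tested. The replicate block gave 4 members higher and 1 lower, and 4654 genes higher and 4816 lower. Same-numbered samples correlated over 0.1 in 3 of 10 pairs (-0.184 to 0.153), and 0 of 10 matched best with their own number, so they share only a number.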
